A study of Caenorhabditis elegans with 16 samples.

Results

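The genes described here are the 10 enzymes of trehalose and glycogen metabolism of the nematode Caenorhabditis elegans. They are the trehalose 6-phosphate synthases tps-1 and tps-2, the trehalose 6-phosphate phosphatase gob-1, the trehalases tre-1, tre-2, tre-3, tre-4 and tre-5, the glycogen synthase gsy-1 and the glycogen phosphorylase pygl-1. They were chosen by name, from their roles, and found by matching the gene IDs of the count table to gene symbols. Earlier results of these data were known when the members and the further lists below were chosen. Their counts beside the shares of all tested genes are therefore description and not a test. All 10 were among the 21882 genes of the table, and all 10 passed a filter on low counts that left 17844 genes for testing.

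RNA of whole animals of the wild-type strain N2 Bristol was sequenced from 4 groups of 4 libraries. Young adults with free access to food, young adults fasted for 6 h, day 8 adults with free access to food and day 8 adults fasted for 6 h were sampled. All groups carry the same genotype and were grown on NGM plates, and no allele or agent other than food withdrawal is named in the labels. The stated purpose of the series was to find genes whose response to fasting is present in the young and missing in the aged.

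Trehalose is a disaccharide of glucose that nematodes use as a store of energy and as a protectant against dehydration and osmotic stress. The synthases join UDP-glucose and glucose 6-phosphate to trehalose 6-phosphate, the phosphatase removes the phosphate, and trehalases split the sugar back to glucose. Glycogen synthase draws on the same pool of UDP-glucose to lengthen glycogen chains, and glycogen phosphorylase releases glucose 1-phosphate from them. In the worm, glycogen is known to be held in tissues such as the intestine, the epidermis and muscle.

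Library totals ranged from 58.4 to 117.7 M counts (M, in units of 1000000). Counts were lowest for tre-5 in fed young adults (37 to 91 per library) and next lowest for tre-4 (155 to 465 per library over all groups). Counting error was thus largest for these, and all other values rested on at least 1001 counts. Levels are given as CPM, counts per 1000000 after scaling of the libraries by TMM factors, and comparisons between genes as CPM per kb of exon. The labels number the libraries 1 to 4 without saying whether they are separate cultures, so p-values measure only the spread between these libraries. By the well codes in the sample names, young and day 8 libraries came from different plate columns, so age and plate column cannot be told apart. At both ages, fed libraries came from plate rows A to D and fasted libraries from rows E to H. Feeding and plate row therefore cannot be told apart either. At both feeding states, day 8 libraries 1 and 2 stood apart from day 8 libraries 3 and 4. The former had 18993 to 19300 genes above 0 and the latter 20363 to 20764. Among all tested genes, 79.0% in fed and 75.8% in fasted day 8 animals had no overlap between these pairs of libraries. In whole animals, fewer cells of a type and less RNA per cell cannot be told apart.

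In fasted young adults, some trehalase genes were higher and others lower than in fed ones, and tps-1 rose far more than its paralog tps-2. The small rise of tps-2 lost its call without any 1 of 7 of the 8 young libraries. The synthase tps-1 rose 4.29-fold, the trehalases tre-3 and tre-5 rose 1.99-fold and 24.7-fold, and the trehalases tre-2 and tre-4 fell 2.55-fold and 2.20-fold. Glycogen phosphorylase pygl-1 fell 1.55-fold. The major trehalase tre-1 and the phosphatase gob-1 showed no called difference. In day 8 animals, no member passed the threshold after fasting in the model without pairs. With the replicate number as a block within each age, tps-2 (edgeR adjusted p = 0.00568) and tre-2 (0.0284) passed as lower, and the count over all tested genes went from 66 to 514. With a term for day 8 libraries 3 and 4 instead, tps-2 (edgeR adjusted p = 0.00113) and tre-2 (0.00515) passed as lower too, and the count was 838.

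**Figure D1:**
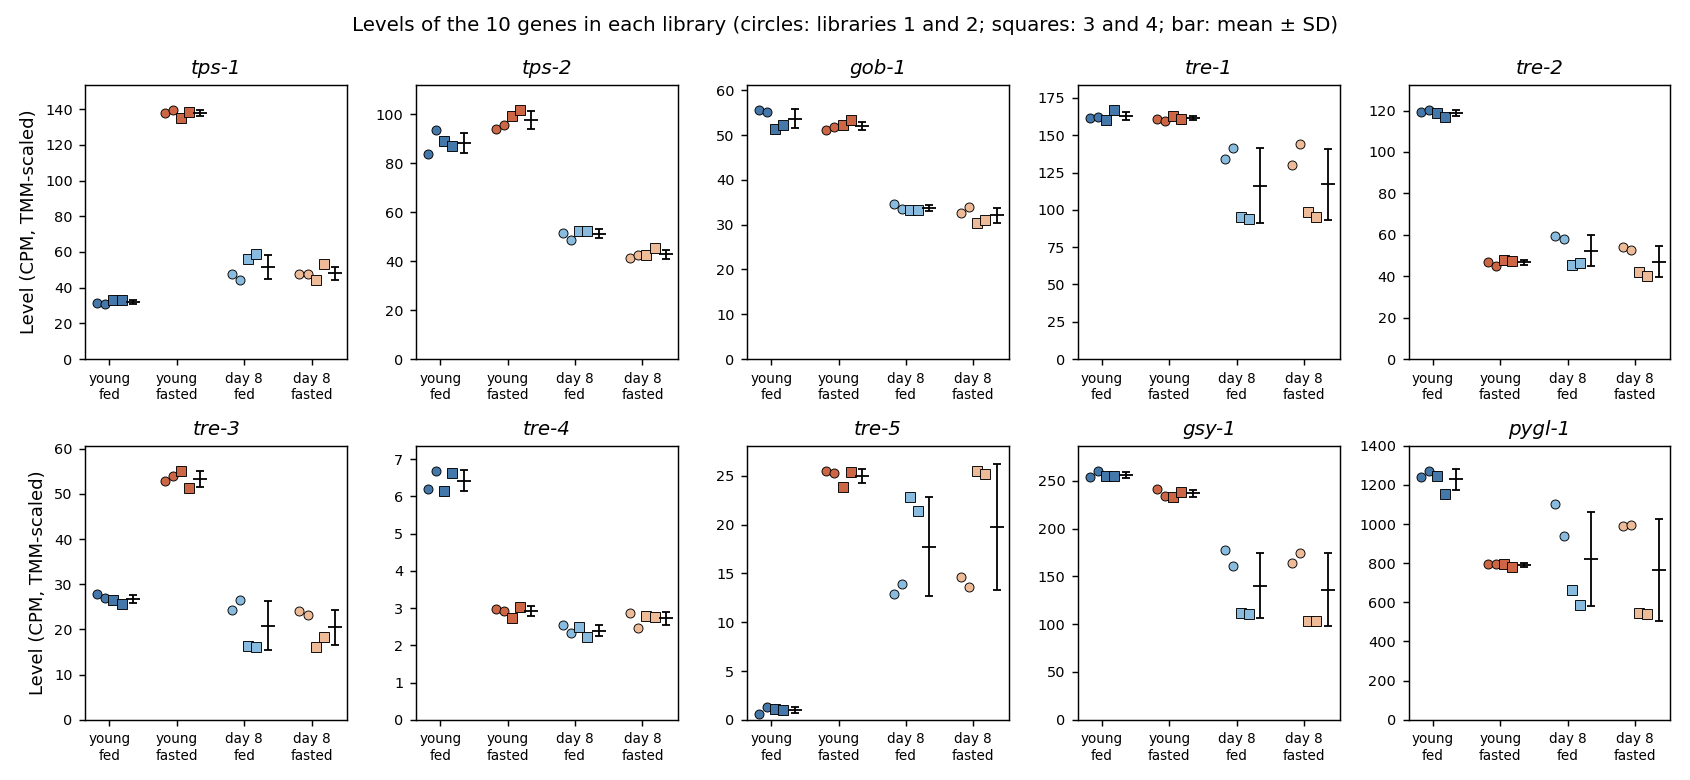
Level of each of the 10 genes in every library, in CPM on a linear axis that starts at 0, for young fed, young fasted, day 8 fed and day 8 fasted animals. Circles are libraries 1 and 2, squares libraries 3 and 4, and the bar is the mean ± SD of 4 libraries. tps-1 and tre-3 stand high in the young fasted libraries, tre-2 and tre-4 stand high in the young fed libraries, and tre-5 stands low in the young fed libraries only. Circles and squares separate at day 8 for tre-1, tre-2, tre-3, tre-5, gsy-1 and pygl-1.

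The synthase tps-1 is one of a pair of paralogs that catalyse the first step of trehalose synthesis. It (WBGene00006602) lies on the minus strand of chromosome X at 17467121 to 17474534 in WBcel235 and has 2 annotated transcripts. Its level was 31.3, 30.9, 33.0 and 33.2 CPM in the young fed libraries and 138, 139.7, 135 and 139 CPM in the young fasted libraries. In day 8 animals it was 47.5, 44.1, 55.9 and 58.8 CPM when fed and 47.5, 47.8, 44.3 and 53.1 CPM when fasted. All young fasted libraries lay above every other library, and the day 8 groups overlapped each other between the 2 young levels. The fitted rise in young adults was 2.10 ± 0.09 (log2, SE; adjusted p = 3.3e-11, edgeR quasi-likelihood test with Benjamini-Hochberg adjustment over all tested genes, as throughout). At day 8 the difference was -0.10 ± 0.08, with a 95% interval of -0.28 to 0.08.

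The paralog tps-2 (WBGene00006603, chromosome II, plus strand, 14600902 to 14610554) encodes the other synthase and shares 24 exonic bases with arl-3 on the same strand. In young adults its level was 83.7, 93.5, 88.96 and 87.0 CPM when fed and 93.9, 95.7, 99.4 and 102 CPM when fasted. In day 8 animals it was 51.5, 48.5, 52.2 and 52.3 CPM when fed and 41.1, 42.5, 42.3 and 45.2 CPM when fasted. The fed and fasted libraries did not overlap at either age, and fasted libraries were the higher ones in young adults and the lower ones at day 8. The rise in young adults was 0.15 ± 0.06 (log2, SE; edgeR adjusted p = 0.0459), and the call was lost without any 1 of 7 of the 8 young libraries (edgeR adjusted p 0.0520 to 0.142; young fed library 2 was the exception) and without the filter (0.0666). At day 8 the difference was -0.26 ± 0.06 (edgeR adjusted p = 0.0667). It passed the threshold with a term for day 8 libraries 3 and 4 (edgeR adjusted p = 0.00113), with the replicate number as a block within each age (0.00568) and with DESeq2 (0.00757). It also passed without day 8 fasted library 4 (edgeR adjusted p = 0.0374), without day 8 libraries 1 and 2 (0.0122) and without day 8 libraries 3 and 4 (0.0211).

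Among the synthases, tps-1 held 24.3 ± 1.19% (SD, n = 4) of the summed CPM per kb in young fed animals and 55.4 ± 1.04% in young fasted animals. Its share was 46.9 ± 2.65% in fed and 49.8 ± 1.28% in fasted day 8 animals. The summed level of both synthases was 30.4 ± 1.03 CPM per kb in young fed, 57.1 ± 0.915 in young fasted, 25.2 ± 2.01 in day 8 fed and 22.2 ± 1.23 in day 8 fasted animals. Young fed animals thus had mostly tps-2, and young fasted libraries all had more tps-1 than tps-2. At day 8 the libraries of the 2 genes overlapped. The tps-1 share per library was there 44.5 to 49.8% in fed and 48.0 to 50.9% in fasted animals. By CPM without division by exon length, its mean share at day 8 was 50.1% in fed and 52.9% in fasted animals.

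The phosphatase gob-1 (WBGene00001649, chromosome X, plus strand, 15493602 to 15497504) completes trehalose synthesis, and its loss in the worm is known to be harmful through build-up of trehalose 6-phosphate. Its level was 55.6, 55.3, 51.5 and 52.2 CPM in young fed and 51.2, 51.7, 52.3 and 53.3 CPM in young fasted libraries. It was 34.6, 33.5, 33.3 and 33.2 CPM in day 8 fed and 32.7, 34.0, 30.5 and 31.1 CPM in day 8 fasted libraries. Fed and fasted libraries overlapped at both ages. The fasting difference was -0.04 ± 0.06 in young adults (95% interval -0.16 to 0.08, edgeR adjusted p = 0.566) and -0.07 ± 0.06 at day 8. The gene that acts directly after the synthases therefore had no called difference where tps-1 rose.

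Trehalases hydrolyse trehalose to glucose, and the worm has 5 genes for them. In young fed animals tre-1 and tre-2 together supplied most of the trehalase messenger RNA, and tre-5 almost none.

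The most abundant trehalase was tre-1 (WBGene00006607, chromosome I, plus strand, 6554729 to 6558665). It stood at 162, 162, 160.4 and 167 CPM in young fed and at 161, 159.8, 163 and 161 CPM in young fasted libraries. At day 8 it stood at 134, 141, 94.9 and 94.0 CPM in fed and at 130.2, 144, 98.8 and 95.3 CPM in fasted libraries. Young fed and fasted libraries overlapped, and the day 8 values fell into the 2 pairs of libraries. The fasting difference was -0.01 ± 0.14 in young adults (95% interval -0.31 to 0.29, edgeR adjusted p = 0.949) and 0.01 ± 0.14 at day 8.

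The next most abundant in all groups but the young fasted, where tre-3 stood above it, was tre-2 (WBGene00006608, chromosome IV, minus strand, 6876731 to 6883442). Its level was 119.1, 120.4, 119.01 and 117 CPM in young fed and 46.7, 44.8, 47.9 and 47.2 CPM in young fasted libraries. The day 8 libraries gave 59.2, 58.2, 45.7 and 46.5 CPM when fed and 54.1, 52.5, 41.8 and 39.9 CPM when fasted. Young fed libraries stood above all others, and the young fasted libraries lay within the range of the day 8 libraries. The fall in young adults was -1.35 ± 0.11 (log2, SE; edgeR adjusted p = 5.39e-08). At day 8 the difference was -0.15 ± 0.10 (95% interval -0.38 to 0.07), lower in 4 of 4 same-numbered pairs. It passed the threshold with a term for day 8 libraries 3 and 4 (edgeR adjusted p = 0.00515) and with the replicate block within each age (0.0284). It also passed without day 8 libraries 1 and 2 (edgeR adjusted p = 0.0098), but not without libraries 3 and 4 (0.0815).

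The trehalase tre-3 (WBGene00006609, chromosome V, minus strand, 11709769 to 11715903) had 27.9, 26.9, 26.6 and 25.7 CPM in young fed and 52.7, 54.03, 55.1 and 51.2 CPM in young fasted libraries. The day 8 values were 24.3, 26.6, 16.3 and 16.2 CPM when fed and 24.1, 23.2, 16.1 and 18.3 CPM when fasted. Young fasted libraries were above all others, and day 8 fed and fasted libraries overlapped. The rise was 0.99 ± 0.16 in young adults (log2, SE; edgeR adjusted p = 0.000105), against -0.03 ± 0.16 at day 8.

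The least abundant trehalase in all groups but the young fed was tre-4 (WBGene00006610, chromosome X, plus strand, 13472155 to 13475926). It shares 51 exonic bases with efn-3 on the other strand, and since no source says if strand was used in counting, reads from this stretch are uncertain. It had 6.20, 6.69, 6.16 and 6.62 CPM in young fed and 2.98, 2.93, 2.73 and 3.02 CPM in young fasted libraries. The day 8 values were 2.55, 2.33, 2.48 and 2.23 CPM when fed and 2.87, 2.46, 2.80 and 2.77 CPM when fasted. As for tre-2, the young fed libraries stood alone. The fall in young adults was -1.14 ± 0.11 (log2, SE; edgeR adjusted p = 3.42e-07), and the day 8 difference was 0.18 ± 0.10, higher in 4 of 4 same-numbered pairs (edgeR adjusted p = 0.389 with the replicate block within each age).

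The largest fold change among the members was that of tre-5 (WBGene00006611, chromosome II, minus strand, 52997 to 55304), a gene that overlaps the bounds of sptl-1 on the other strand with no exonic base in common. In the young fed libraries it had 0.590, 1.31, 1.11 and 1.02 CPM, from 37, 91, 82 and 62 counts. The young fasted libraries had 25.5, 25.3, 23.9 and 25.4 CPM, from at least 1336 counts each. The day 8 values were 12.9, 13.9, 22.8 and 21.4 CPM when fed and 14.6, 13.7, 25.5 and 25.2 CPM when fasted. The young fed libraries were thus low and all other libraries were at least 12.9 CPM, whether fasted or not. The rise in young adults was 4.63 ± 0.29 (log2, SE; edgeR adjusted p = 4.05e-09), which ranked 129 from the highest among 17844 tested genes. At day 8 the difference was 0.15 ± 0.24 (95% interval -0.37 to 0.68).

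**Figure D2:**
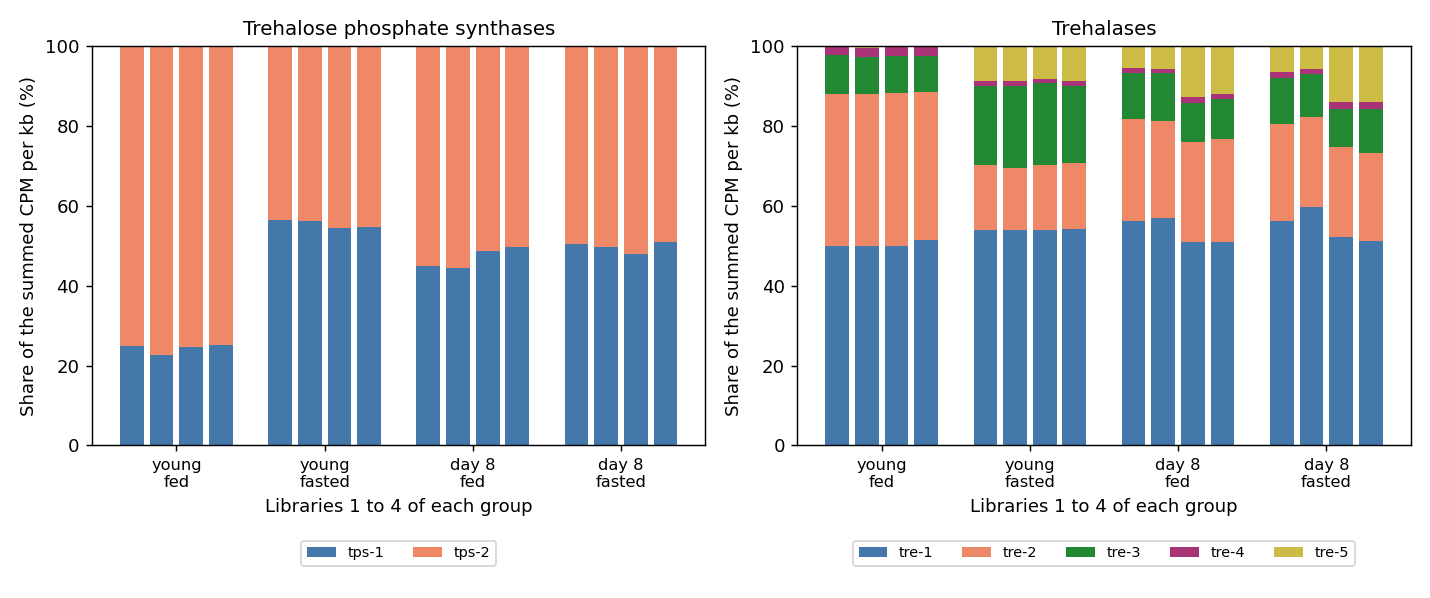
Share of each gene in the summed CPM per kb of the trehalose phosphate synthases (left) and of the trehalases (right), in percent, with 1 stacked bar per library and the 4 groups side by side. In young adults the fasted libraries show a larger tps-1 share (55.4% against 24.3%) and a smaller tre-2 share (16.1% against 37.8%), and the tre-5 band is barely visible in young fed libraries only.

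As a share of all trehalase CPM per kb, tre-1 was close to constant at 50.3 ± 0.744% in young fed, 54.04 ± 0.126% in young fasted, 53.7 ± 3.32% in day 8 fed and 54.8 ± 3.96% in day 8 fasted animals (SD, n = 4). The share of tre-2 was 37.8 ± 0.526% in young fed, 16.1 ± 0.368% in young fasted, 25.2 ± 0.748% in day 8 fed and 22.8 ± 0.875% in day 8 fasted animals. The share of tre-3 was 9.29 ± 0.326%, 20.0 ± 0.545%, 10.8 ± 1.14% and 10.8 ± 0.903% in the same order of groups. The share of tre-5 was 0.324 ± 0.0974%, 8.73 ± 0.332%, 9.06 ± 3.85% and 10.1 ± 4.52%. The summed level of the 5 genes was 146 ± 0.887 CPM per kb in young fed and 135 ± 1.25 in young fasted animals, and 97.1 ± 15.2 and 96.0 ± 12.8 in fed and fasted day 8 animals. The share of tre-5 was thus low in the young fed libraries, and at day 8 it followed the pair of libraries. In fed day 8 animals it was 5.62 and 5.84% in libraries 1 and 2 and 12.7 and 12.0% in libraries 3 and 4. In fasted day 8 animals it was 6.57 and 5.90% against 14.0 and 14.1%.

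The glycogen synthase gsy-1 (WBGene00001793, chromosome II, minus strand, 12866446 to 12878121) lengthens glycogen chains. Its level was 254, 261, 255 and 255 CPM in young fed and 241, 234, 233 and 238 CPM in young fasted libraries. It was 178, 161, 112 and 111 CPM in day 8 fed and 164, 174, 103 and 104 CPM in day 8 fasted libraries. The young fed and fasted libraries did not overlap, although the difference was small, and the day 8 libraries fell into their 2 pairs. The fasting difference was -0.11 ± 0.17 in young adults (95% interval -0.49 to 0.26, edgeR adjusted p = 0.618) and -0.04 ± 0.17 at day 8. With the spread taken from the 8 young libraries only, the young difference was -0.10 and passed the threshold (edgeR adjusted p = 0.000637), as it did with the replicate block within each age (0.0197).

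The glycogen phosphorylase pygl-1 (WBGene00020696, chromosome V, plus strand, 3579023 to 3585042, 4 annotated transcripts) had the highest level per kb of the 10 genes in every group. In young adults it had 1241, 1273, 1246 and 1153 CPM when fed and 796, 796, 797 and 779 CPM when fasted. At day 8 it had 1103, 940.3, 664 and 587 CPM when fed and 989, 997, 545 and 538 CPM when fasted. Young fasted libraries were below all young fed libraries, and the day 8 values, from 538 to 1103 CPM, all lay below the young fed libraries and on either side of the young fasted ones. The fall in young adults was -0.63 ± 0.21 (log2, SE; edgeR adjusted p = 0.0260), and leaving out any 1 of the 4 young fasted libraries took it past the threshold (edgeR adjusted p 0.0542 to 0.0580). With the 8 young libraries alone it was -0.61 (edgeR adjusted p = 8.86e-12). At day 8 the difference was -0.10 ± 0.21 (95% interval -0.55 to 0.35), and without day 8 libraries 1 and 2 it was -0.21 and passed (edgeR adjusted p = 0.0290).

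Over the 10 members, 4 rose (tps-1, tps-2, tre-3, tre-5), 3 fell (tre-2, tre-4, pygl-1) and 3 did not pass (gob-1, tre-1, gsy-1) after fasting in young adults. Of all tested genes, 42.4% passed in this comparison, 21.2% higher and 21.1% lower. The fed and fasted libraries did not overlap for 8 of the 10 members, against 63.3% of all tested genes. The median log2 fold change was -0.03 over the members and 0.03 over all tested genes. At day 8, edgeR called 0 of the 10, with 1 at an unadjusted p under 0.05 (tps-2), and DESeq2 called 1 (tps-2, lower). Of all tested genes 0.37% passed at day 8, and the fed and fasted libraries did not overlap for 1 member and for 2.28% of all tested genes.

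**Figure D3:**
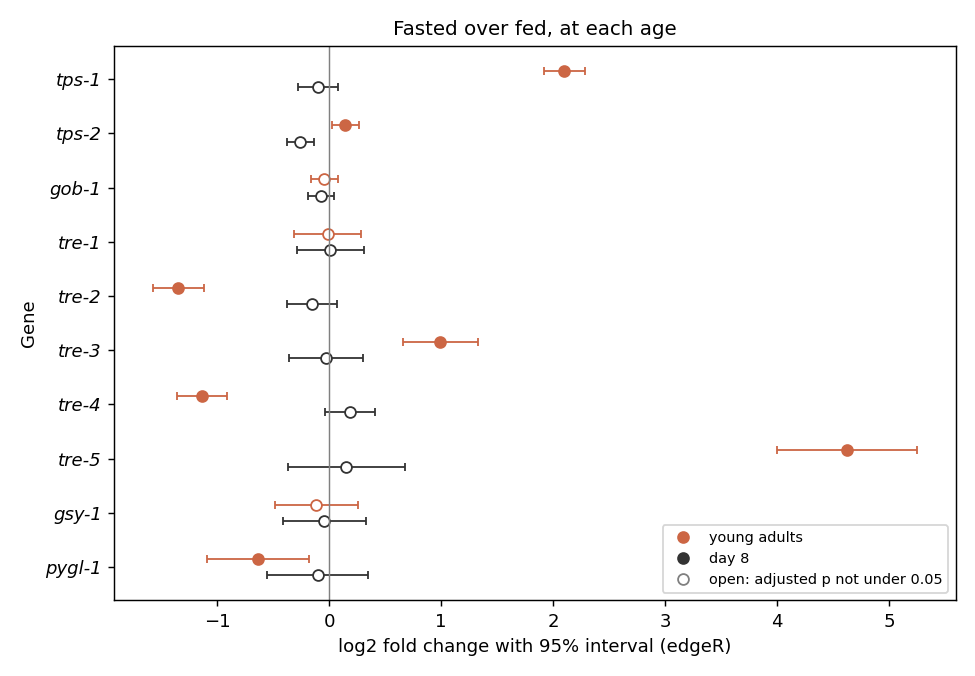
Fitted log2 fold change of fasted over fed animals for the 10 genes, in young adults and at day 8, with 95% intervals from edgeR. Filled points passed an adjusted p under 0.05. The points of young adults spread from -1.35 (tre-2) to 4.63 (tre-5), and those of day 8 lie between -0.26 (tps-2) and 0.18 (tre-4), all open.

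The difference between the responses was tested itself, as the young minus the day 8 log2 fold change. It passed for 6 of the 10 members, 4 higher in young adults and 2 lower, where 26.1% of all tested genes passed (13.4% higher and 12.6% lower). The difference was 4.47 ± 0.37 for tre-5 (edgeR adjusted p = 2.47e-07), 2.20 ± 0.12 for tps-1 (2.06e-09) and 1.02 ± 0.22 for tre-3 (0.00275). It was -1.32 ± 0.15 for tre-4 (edgeR adjusted p = 6.15e-06) and -1.196 ± 0.15 for tre-2 (1.84e-05). The smallest that passed was 0.40 ± 0.08 for tps-2 (edgeR adjusted p = 0.00121), whose fitted changes had opposite signs at the 2 ages. These 6 calls held when any 1 library was left out and when either pair of day 8 libraries was left out.

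For pygl-1 the difference between the responses was -0.53 ± 0.30 (95% interval -1.17 to 0.11, edgeR adjusted p = 0.215), so the fall in young adults was not shown to differ from the day 8 value. It passed without day 8 libraries 1 and 2 (-0.41, edgeR adjusted p = 0.000195), without libraries 3 and 4 (-0.57, 1.42e-05) and with the replicate block within each age (-0.51, 8.22e-05). The differences for gob-1 (0.03 ± 0.08), tre-1 (-0.03 ± 0.20) and gsy-1 (-0.07 ± 0.25) did not pass.

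Between fed animals of the 2 ages, 2 members were higher at day 8, 7 were lower and 1 did not pass. The share of all tested genes that passed was 65.4%, 30.8% higher and 34.7% lower, and libraries did not overlap for 9 members and for 61.9% of all tested genes. The rises were those of tre-5, 17.6-fold or 4.13 ± 0.29 (log2, SE; edgeR adjusted p = 4.77e-09), and of tps-1, 0.68 ± 0.08 (3.02e-06). Both are genes that also rose with fasting in young adults, and the 2 comparisons share the young fed libraries. The lower trehalases were tre-4 at -1.42 ± 0.11 (edgeR adjusted p = 9.7e-09), tre-2 at -1.18 ± 0.11 (8.25e-08) and tre-1 at -0.49 ± 0.14 (0.00666). The remaining trehalase, tre-3, stood at -0.36 ± 0.16 and did not pass (edgeR adjusted p = 0.0531).

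Of the other enzymes in fed animals, tps-2 was lower at day 8 by -0.79 ± 0.06 (edgeR adjusted p = 5.84e-09), gob-1 by -0.67 ± 0.06 (3.38e-08), gsy-1 by -0.87 ± 0.18 (0.000419) and pygl-1 by -0.58 ± 0.21 (0.0262). The pygl-1 call was lost without day 8 fed library 3 (edgeR adjusted p = 0.0641) or 4 (0.0709), and the tre-3 difference passed without day 8 fed library 1 (0.0213) or 2 (0.00656) and with the replicate block within each age (3.86e-05). The size of several differences followed the pair of day 8 libraries. Without libraries 1 and 2 the value was -0.87 for pygl-1, -1.1 for gsy-1, -0.68 for tre-1 and -0.62 for tre-3, and without libraries 3 and 4 it was -0.25, -0.59, -0.23 and -0.06. The rise of tre-5 was 4.55 without libraries 1 and 2 and 3.73 without libraries 3 and 4.

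Scaling of the libraries bears on these age differences. Without scaling factors the median of all tested genes moved from -0.01 to 0.51 (log2), and 9410 genes were called higher and 4118 lower, where 5491 and 6184 were called with TMM. In that setting gob-1 (-0.14), tre-1 (0.02) and pygl-1 (-0.08) did not pass, tre-3 was at 0.14, and tps-1, tre-5, tre-2, tre-4, tps-2 and gsy-1 kept their direction and their call.

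**Figure D4:**
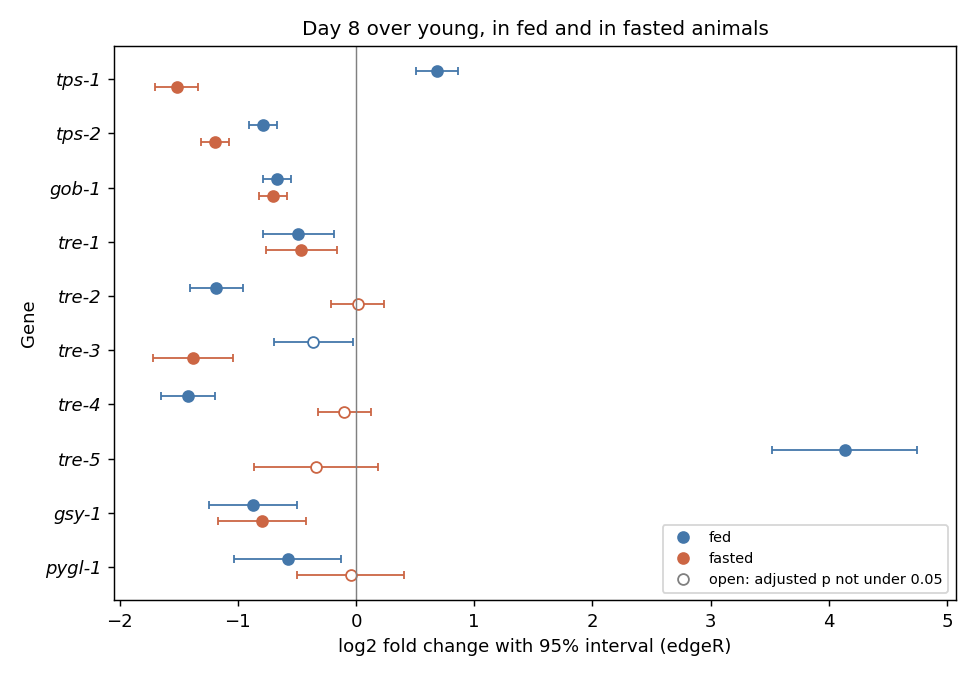
Fitted log2 fold change of day 8 over young animals for the 10 genes, in fed and in fasted animals, with 95% intervals from edgeR. Filled points passed an adjusted p under 0.05. In fed animals tre-5 (4.13) and tps-1 (0.68) lie right of 0, and in fasted animals the called points all lie left of 0, from -0.46 (tre-1) to -1.52 (tps-1).

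Between fasted animals of the 2 ages, no member was called higher at day 8 and 6 were lower, where 68.1% of all tested genes passed, 31.2% higher and 36.9% lower. Libraries did not overlap for 6 members and for 64.7% of all tested genes. The lower members were tps-1 at -1.52 ± 0.09 (edgeR adjusted p = 3.69e-10), tre-3 at -1.38 ± 0.16 (1.22e-06), tps-2 at -1.19 ± 0.06 (5e-11), gsy-1 at -0.80 ± 0.18 (0.00083), gob-1 at -0.70 ± 0.06 (1.86e-08) and tre-1 at -0.46 ± 0.14 (0.00906). The tre-1 call was lost without scaling factors (edgeR adjusted p = 0.0909). The direction of tps-1 was therefore opposite in fed and fasted animals.

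The remaining 4 did not pass in fasted animals in this model. The values were 0.01 ± 0.11 for tre-2 (95% interval -0.21 to 0.24), -0.10 ± 0.11 for tre-4, -0.34 ± 0.25 for tre-5 (95% interval -0.86 to 0.18) and -0.05 ± 0.21 for pygl-1. For tre-2, pygl-1 and tre-5 the pairs of day 8 libraries gave different answers. Without libraries 1 and 2, tre-2 (-0.11, edgeR adjusted p = 0.0101) and pygl-1 (-0.46, 6.8e-07) passed as lower, and tre-5 was at 0.11 and did not pass (0.382). Without libraries 3 and 4, tre-2 (0.18, edgeR adjusted p = 0.000135) and pygl-1 (0.32, 4.27e-05) passed as higher, and tre-5 (-0.83, 1.76e-05) passed as lower. With the replicate block within each age tre-5 also passed as lower (-0.40, edgeR adjusted p = 0.00415), as it did with a term for day 8 libraries 3 and 4 (0.0011). Without scaling factors tre-2 passed as higher (0.33, edgeR adjusted p = 1.25e-05).

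Summed marker levels of several tissues differed with age, and with fasting in young adults, beside these enzymes. The summed level of 8 of 8 intestinal markers ranged from 3620 to 3862 CPM in young fed, 3199 to 3264 in young fasted, 787 to 896 in day 8 fed and 637 to 793 in day 8 fasted libraries. For 5 of 5 body wall muscle markers the ranges were 9775 to 10555, 11425 to 12020, 496 to 935 and 457 to 754 CPM, and for 6 of 6 epidermal markers 2641 to 2838, 2009 to 2035, 158 to 177 and 147 to 169 CPM. Neuronal markers (7 of 7) summed to 281 to 290 CPM in young fed, 354 to 357 in young fasted, 288 to 345 in day 8 fed and 283 to 340 in day 8 fasted libraries. Germline and oocyte markers (10 of 10) summed to 9093 to 9461, 6588 to 6734, 7179 to 12567 and 6662 to 11676 CPM in the same order. In young adults the summed levels of the intestinal, epidermal and germline lists were lower, and those of the muscle, neuronal, sperm and early embryo lists higher, in every fasted library than in any fed library. A sum weighs the most abundant markers most, and the direction of each single marker is not given here. Sperm markers (4 of 6 matched) summed to 140 to 142 CPM in young fed, 241 to 244 CPM in young fasted and at most 4.91 CPM in day 8 libraries. Early embryo markers (6 of 6) summed to 2.22 to 4.52 CPM in young and 7.73 to 10.2 CPM in day 8 libraries, and of these med-1 was at 0 in all young fasted libraries. Only 1 of the 6 had a mean of at least 1 CPM in either young group, so their sum there rests on low values. The part of these markers in the enzyme differences was not tested.

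**Figure D5:**
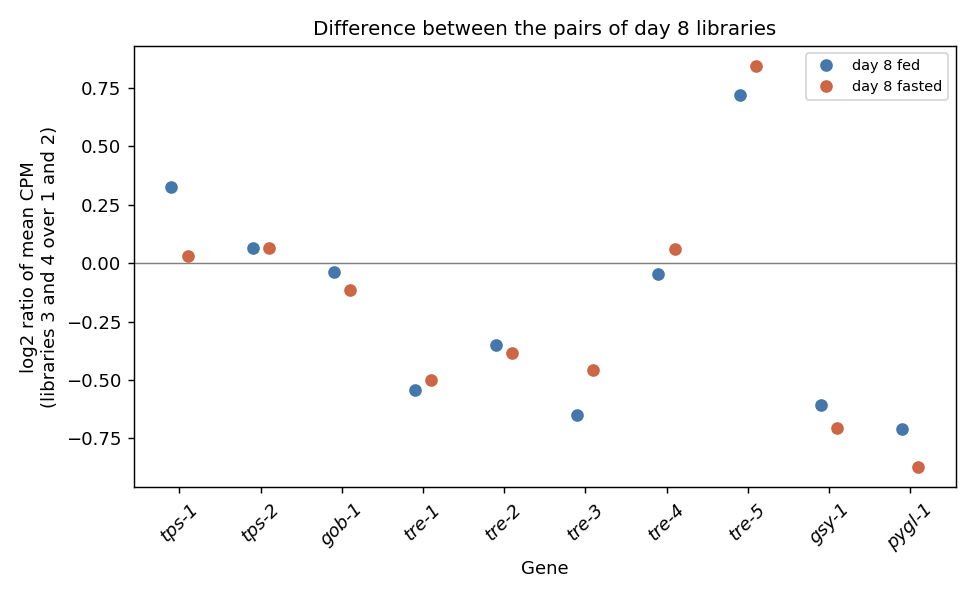
Log2 ratio of the mean CPM of day 8 libraries 3 and 4 over that of libraries 1 and 2, for each of the 10 genes, in fed and fasted day 8 animals. tre-5 lies above 0 at both feeding states, tre-1, tre-2, tre-3, gsy-1 and pygl-1 lie below 0, and tps-2, gob-1 and tre-4 lie near 0.

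Within day 8, the members differed in how far the 2 pairs of libraries stood apart. Libraries 3 and 4 were lower than libraries 1 and 2 for pygl-1 (ratio 0.612 in fed and 0.546 in fasted animals), gsy-1 (0.657 and 0.614), tre-3 (0.638 and 0.728), tre-1 (0.686 and 0.708) and tre-2 (0.785 and 0.766). They were higher for tre-5 (1.65 and 1.79). The ratios of tps-2 (1.05 and 1.05), gob-1 (0.975 and 0.923) and tre-4 (0.968 and 1.04) were close to 1, and tps-1 had 1.25 in fed and 1.02 in fasted animals. The pairs did not overlap for 9 of 10 members in fed and 7 of 10 in fasted animals, beside 79.0% and 75.8% of all tested genes. The labels name no property that separates these pairs.

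Per kb of exon, the order of the 10 genes in young fed animals was pygl-1 (402 ± 17.1 CPM per kb, SD, n = 4), gsy-1 (105 ± 1.22), tre-1 (73.7 ± 1.3), tre-2 (55.4 ± 0.689), gob-1 (27.5 ± 1.09), tps-2 (23.0 ± 1.07), tre-3 (13.6 ± 0.461), tps-1 (7.37 ± 0.269), tre-4 (3.24 ± 0.141) and tre-5 (0.475 ± 0.143). No neighbours in this order had overlapping libraries. In young fasted animals tps-1 (31.7 ± 0.432 CPM per kb) stood next after tre-1 (73.0 ± 0.638). It was followed by tre-3 (27.1 ± 0.864), gob-1 (26.7 ± 0.464) and tps-2 (25.5 ± 0.927), whose libraries overlapped, and then by tre-2 (21.8 ± 0.626), tre-5 (11.8 ± 0.352) and tre-4 (1.47 ± 0.0652).

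At day 8 the order of the genes was the same at the top. In fed day 8 animals pygl-1 had 269 ± 78.6 CPM per kb, and gsy-1 (57.2 ± 14.0) and tre-1 (52.5 ± 11.4) overlapped. The group tps-2 (13.3 ± 0.470), tps-1 (11.8 ± 1.59), tre-3 (10.6 ± 2.74) and tre-5 (8.36 ± 2.39) had overlapping neighbours, and tre-4 was lowest (1.21 ± 0.0718).

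Among the genes listed as partners of glycogen metabolism (glycogenin, branching and debranching enzymes, alpha-glucosidase family genes, phosphorylase kinase and glycogen synthase kinase), 1 of 11 tested genes rose, 2 fell and 8 did not pass in young adults after fasting. Whether each alpha-glucosidase family gene acts on glycogen was not tested. The share of all tested genes that passed was 42.4%. The median was -0.24, against 0.03 over all tested genes, and no gene of the list passed at day 8, where 0.37% of all tested genes did. The alpha-glucosidase family gene aagr-1 rose by 1.48 ± 0.25 (log2, SE; edgeR adjusted p = 0.000221), and its relatives aagr-4 (-2.35 ± 0.31, 1.78e-05) and aagr-3 (-0.44 ± 0.07, 0.000134) fell. The glycogenin gene gyg-1, which encodes the primer of glycogen synthesis, was at -0.54 ± 0.23 and the debranching enzyme gene agl-1 at -0.32 ± 0.13, and neither passed (edgeR adjusted p = 0.0730 and 0.0526).

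Genes for the supply of hexose phosphates and UDP-glucose were also counted in fasted young adults, where 6 of 8 tested genes were lower, 1 was higher and 1 did not pass (median -0.43). Of all tested genes 21.1% were lower and 21.2% higher. The hexokinase hxk-3 rose by 0.74 ± 0.05 (log2, SE; edgeR adjusted p = 9.17e-09), and its relatives hxk-1 and hxk-2 were among the genes that fell. The phosphoglucomutases pgm-2 (-0.64 ± 0.09, edgeR adjusted p = 1.98e-05) and pgm-1 (-0.63 ± 0.14, 0.00196), which interconvert glucose 1-phosphate and glucose 6-phosphate, and the isomerase gpi-1 (-0.48 ± 0.06, 1.33e-05) fell. No gene of this list passed at day 8, where 0.37% of all tested genes did.

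Of the genes for gluconeogenesis and the glyoxylate cycle, which supply sugar from other carbon, 3 of 8 rose, 4 fell and 1 did not pass in young adults, where 21.2% of all tested genes rose and 21.1% fell. The glyoxylate enzyme icl-1 rose by 5.12 ± 0.12 (log2, SE; edgeR adjusted p = 5.16e-14), while aco-1, an aconitase (-0.75 ± 0.10, 1.95e-05), fbp-1, the fructose 1,6-bisphosphatase (-0.70 ± 0.15, 0.00131), and pck-1, a phosphoenolpyruvate carboxykinase (-0.51 ± 0.11, 0.00156), fell. At day 8 pck-1 was the 1 gene of the 8 that passed, at -0.57 ± 0.11 (edgeR adjusted p = 0.0402), against 0.37% of all tested genes.

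The osmolyte genes, for glycerol synthesis and for transporters of the inositol family, all passed in young adults, 2 higher and 3 lower of 5, against 42.4% of all tested genes. None passed at day 8, against 0.37% of all tested genes. The transporter gene hmit-1.3 rose by 1.68 ± 0.10 (log2, SE; edgeR adjusted p = 1.16e-09) and hmit-1.2 fell by 3.13 on the same scale (SE 0.18, 1.36e-09). The glycerol 3-phosphate dehydrogenases split likewise, with gpdh-2 at 0.81 ± 0.06 (edgeR adjusted p = 1.13e-08) and gpdh-1 at -1.39 ± 0.34 (0.00377). In this list, as among the trehalases and hexokinases, paralogs changed in opposite directions.

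Likeness to tre-5 and tre-2 was ranked only among tested genes with a lettered symbol, so genes known by a sequence name were left out. Those whose log2 CPM was most like that of tre-5 over the 16 libraries were mfb-1 (Pearson r = 0.990), lbp-1 (0.989), cyp-13B1 (0.985), fbxa-24 (0.983) and fmo-2 (0.982). The mean level of fmo-2 was 0.953 CPM in young fed, 333 in young fasted, 103 in day 8 fed and 116 in day 8 fasted animals, and that of mfb-1 was 4.95, 38.5, 30.4 and 33.2 CPM. For tre-2 they were hpo-8 (0.991), ent-4 (0.991), mnat-1 (0.990), vha-19 (0.990) and dnpp-1 (0.990). The mean level of vha-19 was 393 CPM in young fed, 189 in young fasted, 198 in day 8 fed and 182 in day 8 fasted animals. These correlations describe libraries that share 4 groups and the split at day 8.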

How the data were processed

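RNA of whole animals was measured in 16 libraries, 4 in each of 4 groups, with polyA RNA, an RNeasy kit and the Kapa mRNA HyperPrep kit, per the labels' protocols. The deposited table holds an estimated count per gene and library (an expected count), made by the authors with build WBcel235 and without scaling to a common total. The build and the tool name DESeq come from the submitters' processing notes. The unit was named from the values, which are not whole. The aligner and counter: not given in the sources used here. Symbols, positions and exon lengths came from the Ensembl annotation of WBcel235, release 115, which held 21714 of 21882 IDs.

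After rounding, filterByExpr on the 4 groups removed 4038 genes. Libraries were scaled with TMM and tested with edgeR 4.0.16 (quasi-likelihood test, R 4.3.3) in 1 model with a mean per group over all 16 libraries. All groups thus share 1 estimate of each gene's spread. P-values were adjusted over the 17844 tested genes (Benjamini-Hochberg) and called under 0.05. SEs were derived from the quasi-likelihood F, and CPM are mean ± SD of 4 libraries. Members and lists were chosen with earlier results of these data known. All members were named. Of each other list, up to 4 called genes with the smallest adjusted p in the young fasting comparison, plus those called at day 8, were named; gyg-1, agl-1, hxk-1 and hxk-2 were named after their values were seen. The genes most like tre-5 and tre-2, the members with the largest rise and fall, were ranked by Pearson r of log2 CPM (prior count 2). Only tested genes with a lettered symbol entered this ranking. In the list of hexose phosphate genes 1 of 9 was not matched, as were 2 sperm markers.

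Same-numbered fed and fasted libraries deviated together at day 8 (correlations of 0.329 to 0.564) and not in young adults (-0.005 to 0.040). Same-numbered pairs are therefore described at day 8 only, a pairing that comes from the data. The block within each age nonetheless held terms for the replicate number at both ages. At day 8 only 2 of 4 libraries correlated best with their own number, and in young adults 3 of 4 did. Pairing by number at day 8 was thus not shown to go beyond the split of libraries 1 and 2 from 3 and 4. The part of the split of libraries 1 and 2 from 3 and 4 in the day 8 correlations was not tested. DESeq2 1.42.0, RLE scaling, no scaling, no filter, halved counts, the compared groups alone, replicate blocks, a term for day 8 libraries 3 and 4, and leaving out libraries were alternatives. Promoter and protein sequences were not used here.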

Additional observations from a re-analysis of the deposited data

Results flagged for a closer look

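The fasting response differed between the ages, by the test of the difference itself, for 6 members. The young minus day 8 log2 difference was 2.20 for tps-1, 0.40 for tps-2, -1.196 for tre-2, 1.02 for tre-3, -1.32 for tre-4 and 4.47 for tre-5. In 40 groups of 4 libraries, 2 had a library far from the others by Dixon's criterion, where chance gives about 1 in 20 groups. They were young fasted library 3 for tre-5, the lowest at 23.9 CPM, and young fasted library 4 for pygl-1, the lowest at 779 CPM. Without that library the young tre-5 rise kept its call, and the pygl-1 fall, at -0.62 against -0.63, did not (edgeR adjusted p = 0.0580). Leaving out any other young fasted library ended the pygl-1 call too (0.0542 to 0.0545).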

How the results depend on the processing

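Of the fitted values of the members under alternatives, 946 kept their direction and side of the threshold, 17 lost a call, 30 gained one and 57 changed sign. Of these 57, 1 had been called (tre-1, age in fed animals, without scaling) and 2 passed with the new sign (age in fasted animals, tre-2 without day 8 libraries 1 and 2 and pygl-1 without libraries 3 and 4). The causes were not tested. The sets of day 8 libraries left out were chosen after seeing the data. With the replicate number as a block over 16 libraries, 0 members and 47 genes (15 higher, 32 lower) passed at day 8, no member's fasting call changed, and tre-3 passed for age in fed animals.

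Counts that moved by over 1.5 times were these. For young fasting (7557 genes), the compared groups alone gave 12050, the block within each age 11621 and the term for day 8 libraries 3 and 4 gave 11869. For day 8 fasting (66 genes, 0 members), DESeq2 gave 210 genes and 1 member and the groups alone gave 4 genes. The block within each age gave 514 and 2, and the library term gave 838 and 2. Leaving out libraries 1 and 2 gave 1612 and 3, and leaving out libraries 3 and 4 gave 328 and 1. Leaving out day 8 fed library 1 gave 39 genes, and leaving out day 8 fed library 3 gave 43. Without day 8 fasted library 4 the members went from 0 to 1. The full range with 1 library left out, moved or not, was 39 to 94 genes. For the difference between responses (4650 genes) the block within each age gave 9051, the library term 9398, and leaving out libraries 1 and 2 or 3 and 4 gave 8831 and 7975. Without scaling the split of calls moved from 3790 higher and 3767 lower to 5461 and 2582 for young fasting, from 2396 and 2254 to 3567 and 1699 for the difference, and from 5564 and 6585 to 7950 and 5045 for age in fasted animals.

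Signs changed as follows (log2). Without scaling, young fasting was 0.16 for gob-1, 0.0885 for gsy-1 and 0.19 for tre-1, the difference between responses 0.13 for gsy-1 and 0.17 for tre-1, age in fed animals 0.0185 for tre-1 and 0.14 for tre-3, and age in fasted animals 0.25 for pygl-1, 0.24 for tre-4 and 0.032 for tre-5. With RLE, pygl-1 was 0.0392 (age, fasted) and tre-1 0.0005 (young); with DESeq2 these were 0.0398 and 0.0001. With no filter tre-1 was 0.0021 (young), -0.0036 (day 8) and 0.0057 (difference), and with the groups alone 0.0044 (young). Without day 8 libraries 1 and 2, gsy-1 was 0.0053 (difference), tre-3 0.0846 (day 8), and in age, fasted, tre-2 was -0.11, tre-4 0.0187 and tre-5 0.11. Without libraries 3 and 4, pygl-1 was 0.32 (age, fasted), tps-1 0.0521 (day 8), and tre-1 -0.0121 (day 8) and 0.0164 (difference). Leaving out 1 library gave, at day 8, -0.18 to 0.0909 for gsy-1, -0.25 to 0.0688 for pygl-1, -0.10 to 0.12 for tre-1, -0.12 to 0.11 for tre-3 and -0.0161 to 0.32 for tre-5; for the difference, -0.20 to 0.0671 for gsy-1 and -0.13 to 0.0886 for tre-1; for tre-1 in young adults -0.0196 to 0.0006; and in age, fasted, -0.20 to 0.10 for pygl-1 and -0.0621 to 0.0993 for tre-2. Depth limits most tre-5 in fed young adults, with 37 to 91 counts, and next tre-4, with 155 to 465 counts per library over all groups.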
